A study of Mus musculus with 6 samples.

Results

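A set of 9 mouse genes that receive and transmit the Hedgehog signal was examined for binding of the transcription factor Gli3. They were the receptor gene *Ptch1*, the ligand-binding inhibitor gene *Hhip*, the co-receptor genes *Boc* and *Cdon*, the signal transducer gene *Smo*, the Gli-binding inhibitor gene *Sufu*, and the Gli factor genes *Gli1*, *Gli2* and *Gli3*. A Gli3 binding site (a peak of the list) was given to a gene when its midpoint fell inside the gene body or within 100 kb of the gene-level transcription start site (TSS) of GENCODE M21, on the mm10 build. By this rule 23 of the 4114 sites belonged to the genes, and 8 of the 9 genes had at least 1 site. Of all 21938 protein-coding genes, 37.4% had a site by the same rule.

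The sites came from chromatin immunoprecipitation followed by sequencing (ChIP-seq), in which DNA bound by a protein is recovered with an antibody and compared with input DNA that was not immunoprecipitated. The experiment held 3 libraries made with a Gli3 antibody and 3 input libraries, all from the cerebral cortex of wild-type mouse embryos at embryonic day 15, described by the study as biological replicates. The authors joined them in 1 list of positions that kept no height, read number or value per replicate, so the replicates cannot be compared with each other, the depth behind a site is unknown here, and the tissue cannot be checked against marker genes. All counts below are therefore descriptions of this list, set beside the same count over all sites or all genes, and 95% Wilson intervals cover the counting error over sites only.

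Hedgehog signaling starts when a secreted ligand binds Patched (Ptch1), with Boc and Cdon as co-receptors, which frees Smoothened (Smo) from its inhibition by Patched. Smoothened then acts through the primary cilium on complexes of Sufu with Gli proteins. Without the signal, Gli3 in particular is cut to a repressor that occupies Gli binding sequences, and repressor Gli3 is known as the main brake on Hedgehog targets in the dorsal forebrain. *Gli1*, *Ptch1* and *Hhip* are textbook targets of the pathway, and the latter pair encode proteins that limit it.

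The GLI core GACCACCCA, the conserved part of the sequence that Gli proteins bind, was searched on both strands of each site. There were 6 exact copies, in 6 of the 23 sites, where 12.2% of all sites on chromosomes held one. They are shown because they place the sequence that Gli proteins recognise within the bound regions. Each is given 5′ to 3′ on its own strand in mm10, with the core in capitals and 10 bases on either side.
Ptch1, 129 bp downstream of the TSS, chr13:63573455-63573483, minus strand: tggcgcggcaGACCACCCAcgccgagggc
Ptch1, 4309 bp downstream, chr13:63569275-63569303, minus strand: cctcagccctGACCACCCAagtcgagcag
Ptch1, 7159 bp downstream, chr13:63566425-63566453, plus strand: aaagtagagaGACCACCCAggtaggcaac
Boc, 6737 bp downstream, chr16:44552146-44552174, plus strand: tattgtccaaGACCACCCActggaaatag
Cdon, 44005 bp downstream, chr9:35465119-35465147, minus strand: tttctgccaaGACCACCCAaggctcctct
Smo, 16426 bp upstream, chr6:29719063-29719091, minus strand: acatggtgggGACCACCCAtgtggtagag

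The first of these lay in a UTR of a *Ptch1* transcript, the next 2 in introns of *Ptch1*, those of *Boc* and *Cdon* in intron 1 and intron 8, and that of *Smo* upstream of the gene. They lay 110 to 1486 bp from the centre of their site, which was 10.4% to 58.6% of the way from the centre to the edge. *Ptch1*, *Boc*, *Cdon* and *Smo* were thus the 4 of 9 genes with a site that held an exact core, against 6.16% of all protein-coding genes.

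Sites without an exact core can hold words that differ from it by 1 base. Such differences are written as the base of the core, its position counted from 1 at the 5′ end of the core, and the base found. The words at *Gli1*, *Hhip*, *Gli2* and *Sufu* are shown because these 4 genes had sites but none with an exact core. They are again read 5′ to 3′ on the strand named, with the 9 bases aligned to the core in capitals.
Gli1, A9G, chr10:127341732-127341760, plus strand: ctcgagccggGACCACCCGcgagaagcgc
Gli1, C7G, chr10:127341574-127341602, minus strand: tccagccctgGACCACGCAtcccgagcac
Gli1, A9T, chr10:127340695-127340723, minus strand: ctctggctcaGACCACCCTgcctgccctt
Gli1, A2C, chr10:127340037-127340065, plus strand: tgccttctcgGCCCACCCAagtcgccgcc
Gli1, A5T, chr10:127339572-127339600, plus strand: ccgcatccaaGACCTCCCAgctcgacatt
Gli1, C3T, chr10:127339423-127339451, minus strand: agcatcccggGATCACCCAccgcgccggc
Hhip, A2G, chr8:80058640-80058668, plus strand: ttttgcaaagGGCCACCCAcaggtcctca
Hhip, G1T, chr8:80056166-80056194, plus strand: aagtgagaggTACCACCCAgacacatatg
Gli2, G1A, chr1:118981048-118981076, plus strand: ccaacaccagAACCACCCActtgggtggg
Gli2, A2C, chr1:118981059-118981087, minus strand: gaccggtttgGCCCACCCAagtgggtggt
Gli2, A5T, chr1:118983163-118983191, minus strand: aacatcctagGACCTCCCAcccacgactg
Gli2, A2C, chr1:119033711-119033739, plus strand: gctccccaggGCCCACCCAcagccctctc
Sufu, G1A, chr19:46340047-46340075, minus strand: cccagtagcaAACCACCCAagaatgggag
Sufu, A2C, chr19:46421425-46421453, minus strand: tagccactgcGCCCACCCAtcagaccagc
Sufu, G1T, chr19:46422707-46422735, minus strand: tgtgtttgatTACCACCCAcgaggctggc
Sufu, C6G, chr19:46422739-46422767, minus strand: aggagggacaGACCAGCCAgatggtctcc
Sufu, A2G, chr19:46484076-46484104, plus strand: tcttgccttgGGCCACCCAagtgccacgc
Sufu, C3G, chr19:46485100-46485128, plus strand: aggatctattGAGCACCCActgtgtgctg
Sufu, G1C, chr19:46485305-46485333, minus strand: gtctgcgtgtCACCACCCActgctccctg

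The number of sites differed widely among the genes. *Ptch1* had 7 sites, *Boc* 4, *Gli2* and *Sufu* 3 each, *Gli1* and *Cdon* 2 each, *Hhip* and *Smo* 1 each, and *Gli3* none. At least 7 sites were found at 34 protein-coding genes, or 0.155% of all, and at least 4 at 370, or 1.69%. At least 3 sites were found at 4.33% of protein-coding genes and at least 2 at 13.3%. *Ptch1* and *Boc* were thus in the upper tail, while the single sites of *Hhip* and *Smo* were a number that 37.4% of genes reached. The stretch searched was 200001 bp for 7 of the genes, but 319488 bp for *Gli2* and 366792 bp for *Gli3*, whose gene bodies reach beyond the window. A longer stretch went with a slightly higher share of genes with a site, as 37.4% of the 19446 protein-coding genes with a stretch of at most 200001 bp and 41.3% of the 998 genes with a stretch over 300000 bp had one.

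**Figure D1:**
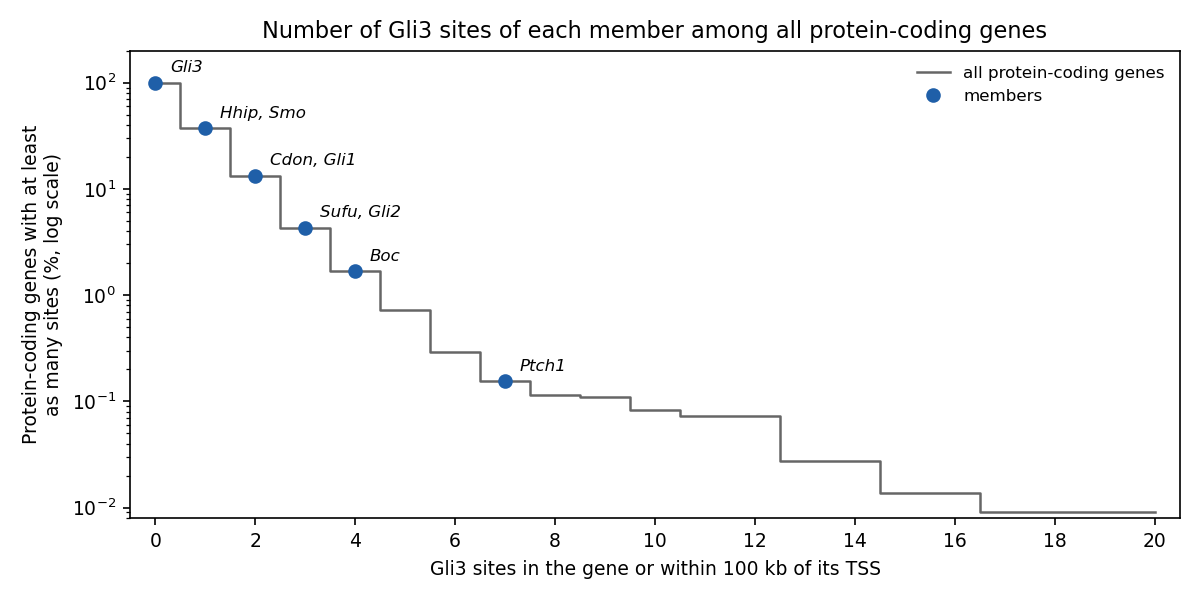
Number of Gli3 sites by the rule (horizontal axis, cut at 20 sites, beyond which 2 genes lie) and the percent of all 21938 protein-coding genes with at least as many (vertical axis, log scale). The line is all protein-coding genes and the points are the 9 genes described, from *Gli3* with no site to *Ptch1* with 7, a number that 0.155% of genes reached.

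Of the 23 sites, 19 (82.6%) had their midpoint inside the gene body, and 18 (78.3%) had it there and outside every annotated exon of the gene. The rule pairs a site with each gene in reach, and over all 12841 pairs of a site and a protein-coding gene that it makes, the first of these shares was 19.2%. Counted by site, 57.3% of the sites on chromosomes had their midpoint inside some protein-coding gene, and 42.3% had it there and outside every exon of that gene. The 4 outside were 1 each at *Smo*, *Cdon*, *Sufu* and *Gli1*, at 16.5 kb upstream, 57.2 kb upstream, 57.1 kb upstream and 30.1 kb downstream of the TSS. For 19 of the 23 sites (82.6%) the gene was also the one with the nearest protein-coding TSS, against 27.1% of all pairs. The pairs are not independent of each other, since a site in a gene-dense region is paired with several genes. At *Gli2*, *Boc* and *Hhip* no other protein-coding TSS lay within 100 kb of the TSS, which left little choice of nearest gene. The sites with another gene nearest were the downstream *Gli1* site, whose midpoint was 72 bp from the TSS of *Mars*, the last *Ptch1* site (*Fancc*), and 2 *Sufu* sites (*Cuedc2* and *Trim8*). The site farthest from its TSS outside a gene was the *Cdon* site at 57157 bp, and the nearest site left out by the rule was 103806 bp from the TSS of *Sufu*, where it lay 1000 bp from that of *Trim8*.

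**Figure D2:**
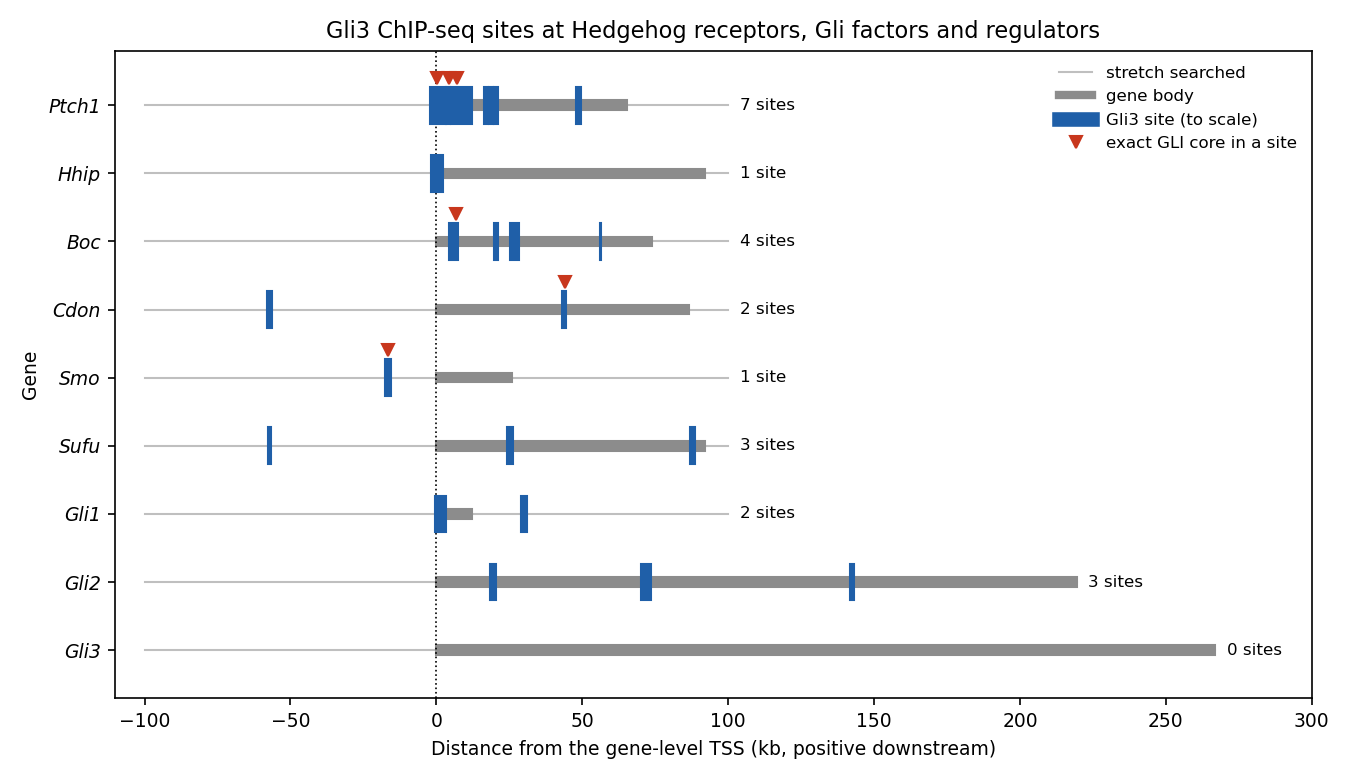
Positions of the 23 Gli3 sites (blue bars, to scale) by distance from the gene-level TSS in kb, positive in the direction of transcription, with 1 row per gene. Thick gray bars are gene bodies, thin lines the stretch searched, and red triangles exact GLI cores in sites. *Ptch1* has sites over much of the first 20 kb of the gene, *Hhip* and *Gli1* have a site over the TSS, and *Gli3* has none.

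*Ptch1* (ENSMUSG00000021466.12), on the minus strand of chromosome 13 between 63508328 and 63573598, encodes the receptor that keeps Smoothened inactive. All 7 of its sites had their midpoint in the gene, a number reached by 7 protein-coding genes (0.0319%), *Ptch1* included. Together they covered 19807 bp, or 9.90% of the stretch searched, and 38 protein-coding genes (0.173%) had as many bases in sites. They fell into 3 groups when sites less than 1 kb apart were joined.

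The group at the start of *Ptch1* consisted of 3 sites that spanned 14498 bp, of which 96.7% was in a site, with gaps of 191 and 282 bp between them. The first site, chr13:63570349-63575823, was 5475 bp wide and covered the gene-level TSS. The second, chr13:63568863-63570157, was 1295 bp wide with its midpoint 4088 bp downstream, and the third, chr13:63561326-63568580, was 7255 bp wide with its midpoint 8645 bp downstream. The third site covered the starts of further *Ptch1* transcripts, and only 28 of the 4099 sites on chromosomes (0.683%) were as wide. It was also rich in CpG, with an observed number 0.698 times that expected from its C and G content, where the median over all sites was 0.305. Each of the 3 sites held 1 exact GLI core, and the farthest of the 3 cores stood 7159 bp from the gene-level TSS. Introns are numbered by the transcript with the longest coding sequence, which starts inside the third site. All 3 cores lay upstream of that start.

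Farther into *Ptch1*, intron 2 held a second group of 3 sites. Their widths were 1286, 1213 and 1402 bp, their midpoints 17.1, 18.8 and 20.3 kb downstream of the TSS, and the gaps between them 470 and 239 bp. None held an exact core, and 1 of them held a single word with 1 mismatch (A9T), 36 bp from its centre. The last site, chr13:63523901-63525781, was 1881 bp wide, had its midpoint in intron 17 and overlapped 184 coding bases. It too lacked an exact core. The sites of *Ptch1* without a core were thus those farthest from the TSS.

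Closely spaced sites set *Ptch1* apart from the other genes. In the list as a whole 2.34% of sites ended less than 1 kb before the next site, while 4 of the 23 sites did so (17.4%, interval 6.98% to 37.1%), all 4 of them at *Ptch1*. At the other 7 genes with sites, the shortest distance between neighbours was 4194 bp, at *Boc*. Sites that hold a core were also numerous at *Ptch1*. By the rule, 13 protein-coding genes had 3 or more such sites, several of them neighbours that share sites. All 3 of those at *Ptch1* had *Ptch1* as the gene with the nearest protein-coding TSS. They lay in the same stretch of 14498 bp once sites less than 1 kb apart were joined. The ranks of *Ptch1* by number of sites depend on this splitting and were not recomputed on joined sites.

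*Hhip* (ENSMUSG00000064325.4), on the minus strand of chromosome 8 between 79965851 and 80058006, encodes a membrane protein that binds and sequesters Hedgehog ligands. Its single site, chr8:80055642-80059748, was 4107 bp wide, a width reached by 9.37% of sites, and had its midpoint 311 bp downstream of the TSS in the UTR of exon 1. It covered the TSS and 279 coding bases. It held no exact core and the 2 words with 1 mismatch shown above, 648 bp upstream and 1826 bp downstream of the TSS. The next site beyond the 3′ end of the gene was 136 kb away, closest to *Anapc10*.

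*Boc* (ENSMUSG00000022687.12), on the minus strand of chromosome 16 between 44485049 and 44558897, encodes an immunoglobulin-family co-receptor for Hedgehog ligands. Its 4 sites were all in introns, and 28 protein-coding genes (0.128%) had as many inside the gene. The first 3 lay in intron 1, at midpoints 5.87, 20.3 and 26.7 kb downstream of the TSS, with widths of 2974, 1447 and 2942 bp. The fourth, chr16:44502327-44502781, was in intron 4 and was the narrowest of the 23 sites at 455 bp, a width that 98.5% of sites reached. No site covered the *Boc* TSS, and no other protein-coding TSS was within 100 kb of it. The core shown above was in the first site, chr16:44551546-44554519. The narrow site held a word with A2G 73 bp from its centre, and the site at 26.7 kb held words with A5G and C6A.

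*Cdon* (ENSMUSG00000038119.15), on the plus strand of chromosome 9 between 35421128 and 35507652, encodes the co-receptor most closely related to Boc. It had a site of 1437 bp in intron 8, chr9:35464042-35465478, and a site of 1463 bp upstream, chr9:35363240-35364702. The intronic site overlapped 187 coding bases and held the exact core, together with a word with G1C 2 bp from its centre and a word with C3A. The upstream site held 1 word with A2T near its edge. Neither site covered the *Cdon* TSS, from which the midpoint of the nearer one was 43632 bp away, while that of the nearest *Boc* site was 5865 bp from its TSS.

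*Smo* (ENSMUSG00000001761.7), on the plus strand of chromosome 6 between 29735503 and 29761365, encodes the seven-pass membrane protein that passes the signal on. Its single site, chr6:29717913-29720021, was 2109 bp wide and ended 15482 bp upstream of the TSS. It held the exact core 110 bp from its centre, the closest of the 6, and 3 words with 1 mismatch (G1C, C6A and C3G). At 1.42 such words per kb it was among the 6.37% of sites with as many. In the list as a whole, G1C was held by 5.93% of sites and 5.93% of stretches of equal length beside sites (flanks). For C6A these shares were 1.59% and 1.79%, and for C3G 3.44% and 2.93%. The density thus does not show words specific to sites. The gene body of *Smo* itself held no site.

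*Sufu* (ENSMUSG00000025231.17), on the plus strand of chromosome 19 between 46396896 and 46488804, encodes the cytoplasmic protein that binds Gli factors and restrains them. Of its 3 sites 2 were in the gene, one of 2176 bp in intron 2 (chr19:46421119-46423294) and one of 1743 bp in intron 11 (chr19:46483679-46485421). The third, of 938 bp, was 1059 bp from the TSS of *Cuedc2*, and the site in intron 11 was 17152 bp from that of *Trim8*, so that the site in intron 2 was the only one with *Sufu* as the nearest protein-coding gene. None of them held an exact core. They held 3 words with 1 mismatch in intron 2, 3 in intron 11 and 1 upstream. The density in intron 11, 1.72 words per kb, was reached by 3.66% of sites, and the 2 flanks of that site held 2 such words. Of its 3 words, A2G was held by 11.3% of all sites and 2.94% of all flanks, but C3G and G1C had the shares given for *Smo*.

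*Gli1* (ENSMUSG00000025407.7), on the minus strand of chromosome 10 between 127329882 and 127341974, encodes the Gli factor that acts as an activator and is switched on by the pathway. Its site of 3683 bp, chr10:127338746-127342428, covered the TSS, and its midpoint was in intron 2. Instead of an exact core it held the 6 words with 1 mismatch shown above, the largest number in any of the 23 sites. Their density of 1.63 per kb was reached by 4.61% of all sites. The 6 words differed at positions 2, 3, 5, 7 and 9 of the core, and 2 of them were in the UTR of exon 1, 228 and 386 bp downstream of the TSS. The second site, chr10:127310785-127312931, was 2147 bp wide, covered the TSS of *Mars*, which encodes a tRNA synthetase, and held no word with 0 or 1 mismatch. As 10 other protein-coding TSSs lie within 100 kb of *Gli1*, this site cannot be ascribed to 1 gene from its position.

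*Gli2* (ENSMUSG00000048402.14), on the minus strand of chromosome 1 between 118834132 and 119053619, encodes the Gli factor that provides most of the activator when the signal arrives. Its 3 sites were all in introns, with midpoints 19342, 71766 and 142583 bp downstream of the TSS, and 92 protein-coding genes (0.419%) had as many inside the gene. A longer gene has more room for sites, and the gene body of *Gli2* spans 219488 bp. The ranks by sites inside the gene, here and at *Ptch1* and *Boc*, were not matched for gene length. The gene-level TSS was not covered. The site at 71766 bp, chr1:118980061-118983645, was 3585 bp wide and covered the start of a noncoding *Gli2* transcript. It held 3 words with 1 mismatch, and 2 of them stood side by side on opposite strands, with their nearest ends 2 bases apart. The site at 19342 bp (chr1:119033233-119035322) held 1 such word and that at 142583 bp (chr1:118910350-118911722) none.

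*Gli3* (ENSMUSG00000021318.15), on the plus strand of chromosome 13 between 15463235 and 15730026, encodes the factor that was immunoprecipitated. It was the only one of the 9 genes without a site, as were the 62.6% of all protein-coding genes with none. The nearest site was 2897 kb upstream of its TSS, closest to *Ero1lb*, and the next after the end of the gene was 5632 kb away, closest to *Zscan12*. The stretch of 8.80 Mb between them held the TSSs of 40 protein-coding genes. The median distance between neighbouring sites in the list was 224 kb, and 12 of 4078 such distances (0.294%) were as long as the one around *Gli3*. The stretch searched for *Gli3* held 2 exact cores, 62.1 kb upstream of the TSS and 14.2 kb downstream in an intron. Whether reads could be placed and peaks called equally well across this stretch was not tested.

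The TSS itself was covered at *Ptch1*, *Hhip* and *Gli1*. These were 3 of the 9 genes, where 6.22% of all protein-coding genes had a site over the gene-level TSS. The 3 sites were 3683 to 5475 bp wide. When a promoter was taken as 2 kb on either side of the TSS of any annotated transcript, 10 of the 23 sites were at a promoter (43.5%, interval 25.6% to 63.2%), against 45.6% of all sites. The 10 comprised the 3 over a TSS, the 2 further *Ptch1* sites of the group at its start, the *Gli2* site over the start of a noncoding transcript, and 4 that were close to the start of another gene or of a minor transcript, at *Gli1*, *Cdon* and *Sufu*. The narrower of the 2 further *Ptch1* sites covered no *Ptch1* start, and the start nearest to its midpoint was that of another gene, 1456 bp away. The share at promoters was thus near that of the list, while the genes with a covered TSS were those named above as textbook targets. A covered TSS was not particular to these 3 genes. Of 26 further pathway genes described below, 6 (23.1%) had one too.

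The median width of the 23 sites was 1881 bp, from 455 to 7255 bp, against 1995 bp over all 4099 sites on chromosomes. Their median GC content was 50.5%, from 43.7% to 57.4%, against 51.4% over all sites, from 31.7% to 74.4%. Their median CpG ratio was 0.217, against 0.305. Of these sites 3 (13.0%, interval 4.54% to 32.1%) were at least 4 kb wide, namely 2 *Ptch1* sites and the *Hhip* site, where 10.3% of all sites were. Split by position, the median CpG ratio was 0.365 for the 10 promoter sites and 0.206 for the 13 nonpromoter sites, against 0.580 and 0.221 over all sites of each kind. The ratio was highest at the wide *Ptch1* site (0.698) and the site over the *Mars* TSS (0.660). The sites over the TSS of *Gli1* (0.491), *Ptch1* (0.424) and *Hhip* (0.422) were below the median of all promoter sites. The *Gli2* and *Boc* sites ranged from 0.171 to 0.342, and all but the *Gli2* site over a transcript start were nonpromoter sites.

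**Figure D3:**
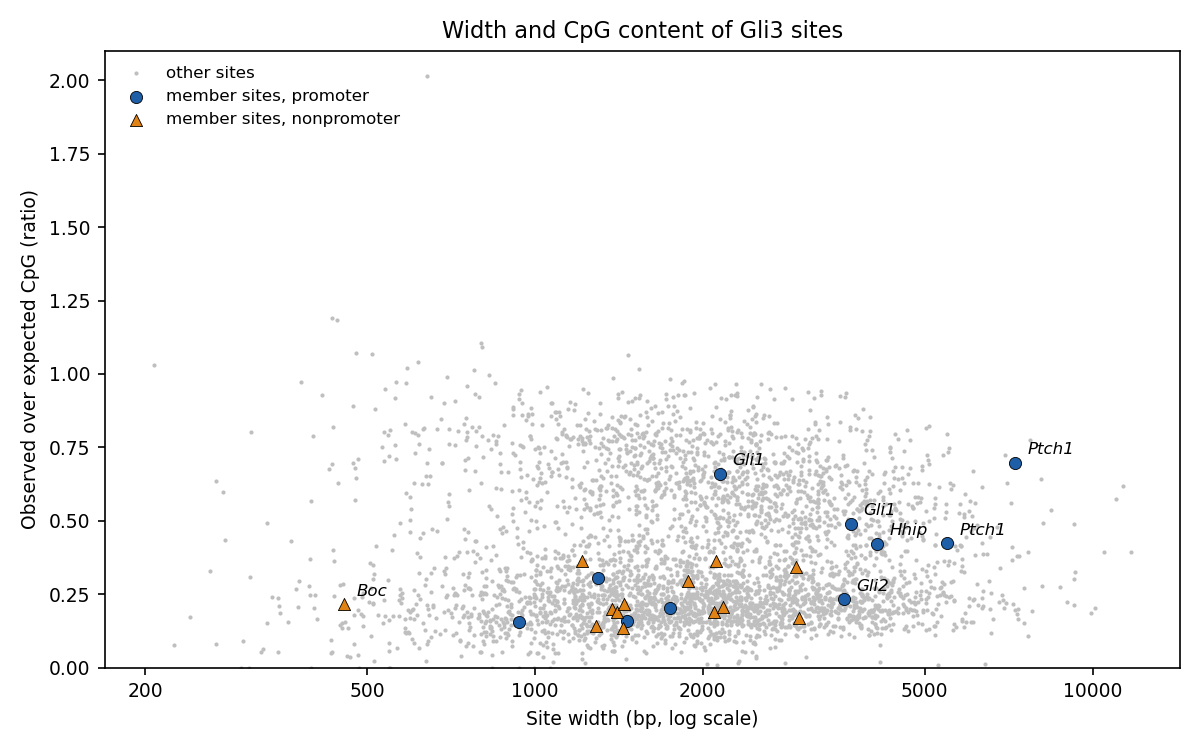
Width in bp (horizontal axis, log scale) and observed over expected CpG (vertical axis) of the Gli3 sites. Gray points are the other sites on chromosomes, blue circles the 10 promoter sites and orange triangles the 13 nonpromoter sites of the genes described. The nonpromoter sites lie between 0.135 and 0.363, and the wide *Ptch1* site is at 7255 bp and 0.698.

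The exact core was in 6 of the 23 sites (26.1%, interval 12.5% to 46.5%), against 12.2% of all sites, a share just below the lower end of the interval. It was in 3 of the 10 promoter sites and in 3 of the 13 nonpromoter sites. The 6 sites are not independent of each other, as 3 of them were neighbours at *Ptch1*. In flanks of equal length, 3 of the 37 beside the 23 sites (8.11%) and 1.70% of all 7825 held a core. The 3 flanks were beside the *Gli1* and *Ptch1* TSS sites and the middle *Gli2* site. With 1 mismatch allowed, 18 of the 23 sites (78.3%, interval 58.1% to 90.3%) held the core or a near match, against 64.7% of all sites, 48.6% of the 37 flanks and 38.3% of all flanks. The 5 sites with neither were the *Mars* TSS site, the outermost *Gli2* site, 2 *Ptch1* sites in intron 2 and the *Boc* site at 20.3 kb.

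**Figure D4:**
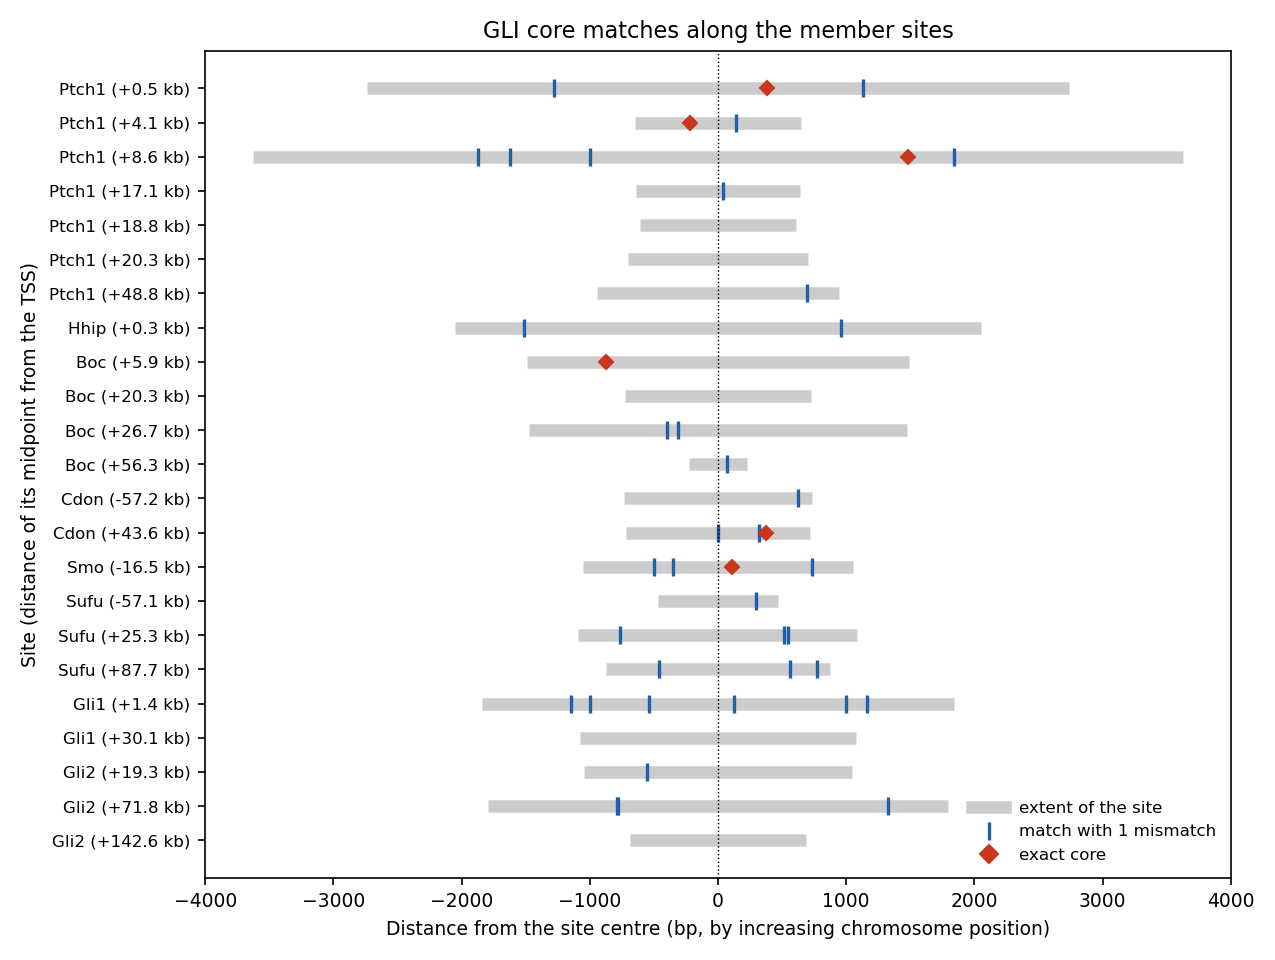
Exact GLI cores (red diamonds) and words with 1 mismatch (blue ticks) along each of the 23 sites (gray bars), by distance from the site centre in bp in the order of chromosome positions. Rows are labelled with the gene and the distance of the midpoint from the TSS. The *Gli1* TSS site holds 6 words with 1 mismatch and no exact core, and no exact core is less than 110 bp from a site centre.

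The 37 words with 1 mismatch amounted to 0.679 per kb of these sites and the flanks beside them held 0.327 per kb, against 0.412 over all sites and 0.238 in all flanks. The substitutions among them differed in how far they were specific to sites of the list as a whole. Ranked by the share of all sites against that of all flanks that hold the word, A9G came first of the 27 possible words (2.29% of sites and 0.230% of flanks), followed by A5G, A2G, A2C and A9T. These 5 accounted for 11 of the 37 words. The single A9G word was at the *Gli1* TSS site, the single A5G word at *Boc*, the 3 A2G words at *Hhip*, *Boc* and *Sufu*, and the 4 A2C words at *Gli1*, *Gli2* (2 words) and *Sufu*. The most frequent substitutions by number were A2C and G1T with 4 words each, and G1T was held by 3.49% of sites and 2.27% of flanks. Other words were held by no larger a share of all sites than of all flanks. These were G1C (3 words), C6A and C6T (2 words each), and C3T and A2T (1 word each).

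Exact cores in the searched stretches were mostly outside sites. There were 24 in the 2086287 bp searched around the 9 genes, and 6 of them (25%) were in sites, which covered 2.61% of those bases. Over chromosomes 1 to 19, X and Y, 591 of 18532 cores (3.19%) were in the 0.353% of bases that sites covered. Sites covered a larger share of the bases around the 9 genes, so the 25% and 3.19% of cores cannot be compared directly. At *Smo*, *Boc* and *Cdon* the only core of the stretch was the one in a site, and at *Ptch1* 3 of 6 cores were in sites. None of the 6 cores around *Gli2*, 4 around *Gli1*, 2 around *Hhip* and 1 around *Sufu* was in a site. All 6 of *Gli2* were in its introns, between 6153 and 38760 bp from the nearest site. One of those around *Gli1* was in a coding exon of the gene, 10.5 kb downstream of the TSS and 7312 bp from the TSS site, and that of *Sufu* was in a coding exon 4.23 kb downstream of its TSS.

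Motifs of other factor families were also searched on both strands. The SP-family word GGGCGGGG was in 6 of the 23 sites (26.1%), against 33.8% of all sites, and was at the 2 widest *Ptch1* sites, a *Ptch1* site in intron 2, and the *Hhip*, *Gli1* and *Smo* sites. The bHLH word CAGCTG was in 17 of 23 (73.9%) against 68.6%, and the homeodomain word TAATTA in 9 of 23 (39.1%) against 38.2%. All 3 shares of the list were inside the intervals of the 23 sites. None of the 3 words overlaps the whole GLI core, but the core contains the letters CACCC, which are also part of sequences bound by Klf factors. A match shows that the letters are present and not that a factor was bound. The 300 bases around the annotated start in RefSeq (250 before and 50 after it) were available for 7 of the 9 genes, without *Gli1* and *Boc*, and held neither an exact core nor a word with 1 mismatch in any of the 7. The exact core 129 bp downstream of the gene-level *Ptch1* TSS was thus outside this short window. Over 27025 genes, 0.289% of genes had an exact core there and 7.73% an exact or near match.

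For context, 26 further genes of the pathway were taken by their role. Of these 15 had a site by the rule (57.7%, interval 38.9% to 74.5%), 6 had a site over the TSS and 3 had a site with an exact core. The shares of all protein-coding genes were 37.4%, 6.22% and 6.16% for the 3 counts. Those with a covered TSS included *Evc* and *Evc2*, whose proteins bind Smoothened at the base of the cilium, *Kif7*, the ciliary kinesin that regulates Gli proteins, and the kinase genes *Prkacb* and *Gsk3b*. Those with an exact core included the co-receptor gene *Gas1*, with a site 92.1 kb downstream, and *Hhat*, which encodes the enzyme that acylates the ligands. *Hhat* had 3 sites, *Evc*, *Evc2* and *Stk36* had 2 each, and *Dhh*, *Gas1*, *Mgrn1*, *Kif7*, *Grk2*, *Prkaca*, *Prkacb*, *Gsk3b* and *Spop* had 1 each. *Evc* and *Evc2* are neighbours and share sites. The ligand genes *Shh* and *Ihh* had none, and neither had *Disp1*, *Scube2*, *Lrp2*, *Mosmo*, *Gpr161*, *Prkar1a*, *Csnk1a1*, *Btrc* and *Cul3*. None of the 26 genes had as many sites as *Ptch1* or *Boc*.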

How the data were processed

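Gli3 ChIP-seq was performed by the authors on cerebral cortices of wild-type embryos at embryonic day 15. Per the header of the deposited list and the submitters' processing notes, 85 bases from each end of a fragment were used, repeats were filtered, reads were mapped with Bowtie2 to mm10, and SAMtools and MACS2 were applied. Narrow peaks whose ranks recurred between replicates were kept by irreproducible discovery rate (IDR) analysis, as its optimal set. The names of the 4114 listed sites run without a break, but the study's text gives a different number of sites. Which one its own counts used was not worked out here, and all shares refer to the deposited list. Versions, peak settings and the IDR threshold are not given in the sources used here, and they set how many sites are listed and how wide they are. The deposited values are start and end positions, with no count, signal or p-value, so the depth is unknown and no model was fitted.

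Starts were converted to 1-based positions. Sequence was read from GRCm38, the assembly of mm10, with 4099 of the 4114 sites on chromosomes and 15 on scaffolds, the latter left out of sequence measures. Flanks, 2 per site, had its length and began 1 site length from each edge. Those that overlapped another site, held unknown bases or ran off a chromosome were left out, which left 7825. Coding genes were the 21938 protein-coding records of GENCODE M21 on the chromosomes.

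The genes, pathway list, motifs and alternatives were chosen with earlier results of these data known. The text names the 9 genes, the 26 pathway genes, the coding gene nearest to a site, and genes with as many core-holding sites as the highest of the 9 where 5 or fewer. Some items that these rules cover are not reported here. The assignment of midpoints and the motif search were tested on simulated data. Sequences were handled with samtools 1.23.1 and pysam 0.24.0 in python 3.11.15, values with scipy 1.17.1 and numpy 2.4.6, and figures with matplotlib 3.10.9.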

Additional observations from a re-analysis of the deposited data

How the results depend on the processing

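Of 41 values recomputed under an alternative, 33 were counted as similar to the value reported and 8 as moved. Each share counted as similar lay inside the interval of the value reported, which is wide for the 23 sites. The similar values thus include promoter shares of 26.1% and 30.4%, where 43.5% was reported. They also include the core share of 17.4% in the central 1000 bp, where 26.1% was reported for whole sites. A window of 250 kb raised the number of sites from 23 to 40, while the other assignments gave 19 to 26. The share of protein-coding genes with a site moved with the same choices, to 25.2% with 50 kb, 59.1% with 250 kb, 8.88% with the gene body only, 39.1% with the TSS of every transcript and 14.1% with the nearest TSS. The number of the 9 genes with a site was 8, or 7 with the gene body only, which left out *Smo*, and *Gli3* had none throughout. The share of the 23 sites with a GLI core was 78.3% with 1 mismatch allowed and 0% in the central 200 bp, where 1.71% of all sites held one. In the central 1000 bp it was 17.4% against 7.90% of all sites. The promoter share was 30.4% with 2 kb upstream only and with 1 kb on either side, and 26.1% with protein-coding transcripts only, against 29.7%, 39.2% and 37.8% of all sites. No paired analysis was possible because the replicates were joined in 1 list without values per replicate, and for the same reason none could be left out. The unknown depth limits what the absence of a site at *Gli3* shows.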

Other observations

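Sites beyond the reach of the rule were listed for each gene out to 250 kb from the TSS. There were 17, of which 6 were around *Ptch1*, 3 around *Sufu*, and 2 each around *Boc*, *Cdon* and *Gli2*. An exact core was held by 3 of them, 2 around *Ptch1* at 146641 bp upstream and 242928 bp downstream, and 1 upstream of *Boc* that was 11 bp from the TSS of *Nepro*. The site 150349 bp upstream of *Gli2*, chr1:119201364-119206573, was 5210 bp wide, and *Gli2* was the gene with the nearest protein-coding TSS.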
